A study of Homo sapiens with 2 samples.

Results

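The splicing factor genes comprised 51 protein-coding genes, taken by name from GENCODE release 44: 13 genes of the serine/arginine-rich (SR) proteins and their TRA2 relatives, 20 genes of the heterogeneous nuclear ribonucleoproteins (hnRNPs) including PTBP1, and 18 genes of core U1 and U2 small nuclear ribonucleoprotein (snRNP) components and the splice site factors that work with them. The annotation held 20033 protein-coding genes in all. Splicing removes introns from pre-mRNA. The U1 and U2 snRNPs mark the ends of each intron, SR proteins mostly bind exons and promote their inclusion, and hnRNPs bind RNA throughout and often repress it. Many of these factors regulate their own transcripts through exons that trigger nonsense-mediated decay (NMD), and they are expressed in nearly all cells, T cells included.

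NUDT21 is the RNA-binding subunit of cleavage factor Im, which recognises UGUA in pre-mRNA upstream of polyadenylation sites. The study profiled its chromatin positions by CUT&Tag, in which an antibody directs a transposase to its target and the DNA cut there is sequenced. The only group held 2 biological replicates of J.gamma1, an established line of T-cell acute lymphoblastic leukemia (T-ALL) derived from Jurkat cells, with an NUDT21 antibody and with no treatment named. It is a single line, and no control sample was analysed here, so the values describe this antibody in these cells.

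The peak lists held 92722 and 66671 peaks on the main chromosomes. Each peak carries a fold, the ratio of the pileup at its summit to the local background, and its percentile here is the rank of that fold among all peaks of the same list. The pileups of replicate 1 fitted a scale of 0.921 and those of replicate 2 a scale of 1, and MACS3 scales a pileup when it is given a control library of another depth. Whether the local background came from a control library or from the NUDT21 library itself is not given in the sources used here, and folds and background levels below hold with that limit. The number of fragments at a summit, solved from the fold and its p-value, had a median of 30 in replicate 1 and 20 in replicate 2. Of 6 T-lineage marker genes, 4 had a peak near a start in both replicates and CD2 and CD3E had none in either. Of 6 marker genes of other blood lineages 3 had one, so promoter peaks did not separate the lineages.

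Nearly all splicing factor genes were occupied at their starts. A peak within 3000 bp of any annotated transcript start was present in both replicates at 47 of 51 members, compared with 57.0% of all protein-coding genes. By group these were 11 of 13 SR genes, 19 of 20 hnRNP genes and 17 of 18 snRNP genes. Among protein-coding genes, the share occupied near a start in each list was 5.98% between 35% and 40% GC and 69.2% between 60% and 65%, so each member was set beside all protein-coding genes whose GC content within 500 bp of the start lay within 2 percentage points of its own. Of those genes, averaged over the members, 65.1% had a promoter peak in both replicates. The corresponding shares were 62.7% for SR genes, 66.6% for hnRNP genes and 65.2% for snRNP genes, below the members' 84.6%, 95% and 94.4%. For SR genes the share came near that of all protein-coding genes when peaks also near a start of another protein-coding gene were left out. Then 6 of 13 SR genes (46.2%) had a peak in each list against 42.5% of all protein-coding genes, with 15 of 20 hnRNP and 12 of 18 snRNP genes. The share in genes of like GC content was not computed for this setting. SRSF1 and SRSF6 dropped out because of neighbours without a gene symbol. Genes whose only peaks were shared counted as unoccupied here, so these shares do not describe promoters of single genes. The SR genes with an unshared peak at the canonical start in both replicates were SRSF3, SRSF4, SRSF5, SRSF10, SRSF11 and TRA2B.

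The same 47 of 51 count was obtained with the stricter window of 1000 bp around the start of the canonical transcript, where 48.1% of protein-coding genes and 56.6% of genes of like GC content had a peak in both replicates. Between 50% and 55% GC, 6 of 7 members were occupied compared with 34.6% of genes, and between 65% and 70% GC, 14 of 14 members compared with 61.8%. Among all genes the share at canonical starts was highest, 62.5%, between 60% and 65% GC and was 53.8% between 80% and 85%. Members did have more annotated starts, a median of 9 against 5, and a median of 14152 bp within reach of a start against 12087 bp. When the reference genes were also held within a factor of 1.5 of each member's reach, 66.7% of them had a promoter peak in both replicates.

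**Figure D1:**
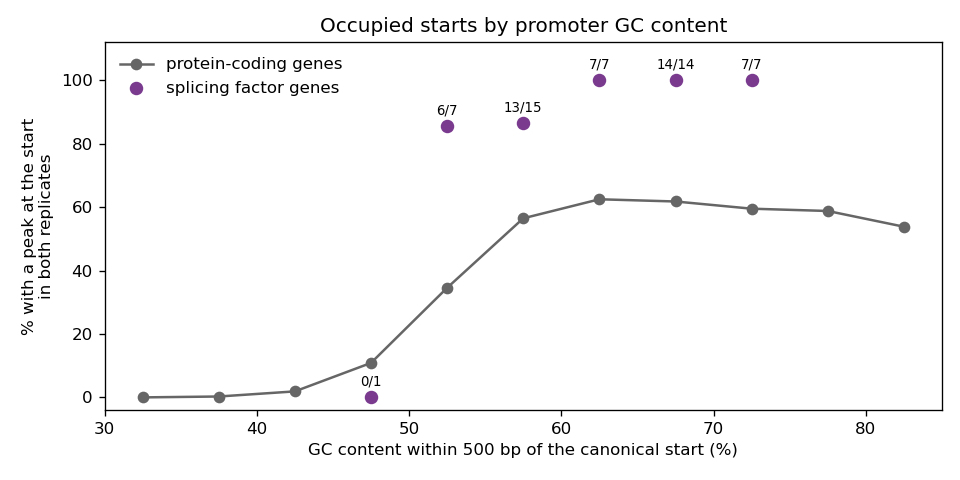
Share of genes with a peak within 1000 bp of the canonical start in both replicates (vertical axis, %) in bins of promoter GC content (horizontal axis, %); grey points are protein-coding genes and purple points are splicing factor genes, with the number occupied over the number in the bin. The members lie above the other genes in each bin from 50% to 75% GC, and the only member under 50%, SRSF8, had no peak.

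Many members ranked among the strongest sites. The highest promoter fold ranked in the top 10% of protein-coding genes in both replicates for 19 of 51 members, compared with 7.0% of all protein-coding genes and 7.65% of genes of like GC content. At the canonical start alone it was 21 of 51, compared with 6.84% and 7.66%. These 21 were 5 SR genes (SRSF2, SRSF6, SRSF7, SRSF10 and TRA2B), 10 hnRNP genes (HNRNPA0, HNRNPA1, HNRNPA2B1, HNRNPAB, HNRNPC, HNRNPDL, HNRNPK, HNRNPL, HNRNPUL1 and PTBP1) and 6 snRNP genes (SF1, SF3A2, SF3A3, U2AF2, SNRNP70 and SNRPA). In the members with a peak, the median percentile of the strongest promoter peak was 97.4 in replicate 1 (n = 49) and 95.4 in replicate 2 (n = 48), against 82.4 and 77.9 for all protein-coding genes with one.

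The ranks of the 3 groups were close. Averaged over the replicates, the median percentile was 96.5 ± 0.104 for SR genes, 97.7 ± 0.852 for hnRNP genes and 94.98 ± 3.11 for snRNP genes (SD, n = 2 replicates). The hnRNP median lay above the SR median in both replicates, by 98.3 to 96.6 and by 97.1 to 96.4. At the canonical start alone that order turned in replicate 2, with 96.4 for SR and 96.1 for hnRNP genes. The snRNP median lay between them in replicate 1, at 97.2, and lowest in replicate 2, at 92.8, so its order against the others did not hold in both replicates.

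**Figure D2:**
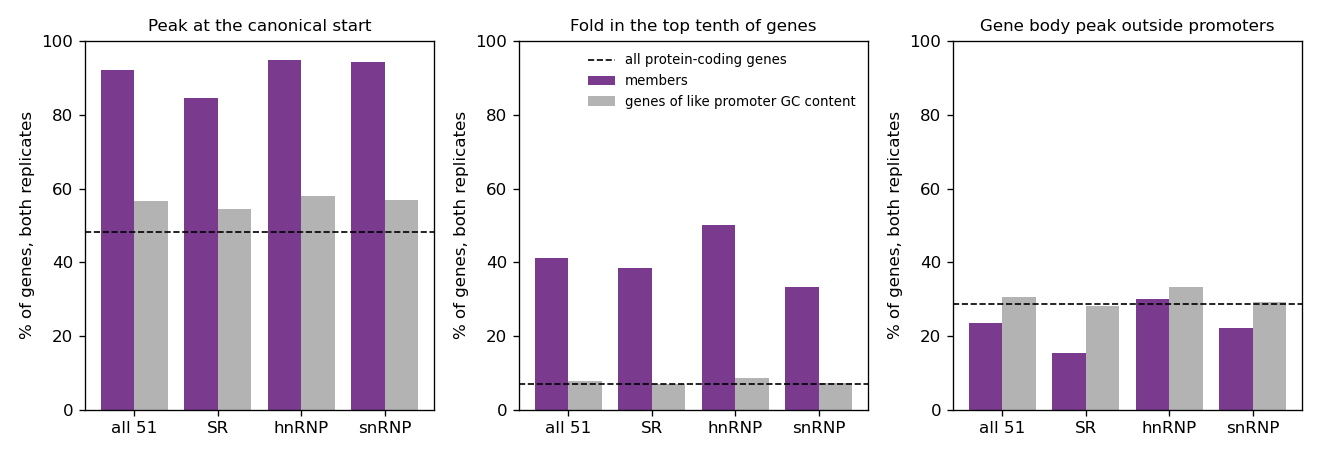
Share of genes (vertical axis, %) that met each description in both replicates, for all 51 splicing factor genes and the 3 groups; purple bars are members, grey bars are protein-coding genes of like promoter GC content and the dashed line is all protein-coding genes. Members exceed the other genes for start peaks (47 of 51) and for the top 10% of fold (21 of 51), and not for gene body peaks (12 of 51).

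The sequence under the summits is shown first for the hnRNP genes, whose summit windows carried the CCAAT box, the motif bound by the transcription factor NF-Y, more often than those of the other groups. The windows are 201 bases of hg38 around the replicate 1 summit, written on the gene's strand, and capitals mark CCAAT or its reverse complement. They are chr19:41264060-41264260 (plus strand, HNRNPUL1), chr5:178204291-178204491 (plus strand, HNRNPAB), chr14:21269683-21269883 (minus strand, HNRNPC), chr1:23344400-23344600 (minus strand, HNRNPR) and chr5:137754492-137754692 (minus strand, HNRNPA0), the last shown as an hnRNP site without the motif. At HNRNPR the start fold in replicate 2 was below the median of genes with a start peak. The strongest promoter summit of HNRNPR in replicate 2 lay in intron 4, and its window held no CCAAT. The printed windows all lie upstream of the canonical start and hold no annotated UTR base.
HNRNPUL1: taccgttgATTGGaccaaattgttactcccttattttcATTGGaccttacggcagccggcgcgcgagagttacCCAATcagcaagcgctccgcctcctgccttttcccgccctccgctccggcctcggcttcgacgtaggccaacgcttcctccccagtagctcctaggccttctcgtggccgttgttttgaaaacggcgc
HNRNPAB: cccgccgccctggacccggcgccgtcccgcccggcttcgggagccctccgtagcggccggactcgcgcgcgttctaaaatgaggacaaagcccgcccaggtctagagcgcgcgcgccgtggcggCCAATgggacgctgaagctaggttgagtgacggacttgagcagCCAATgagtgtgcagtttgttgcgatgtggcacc
HNRNPC: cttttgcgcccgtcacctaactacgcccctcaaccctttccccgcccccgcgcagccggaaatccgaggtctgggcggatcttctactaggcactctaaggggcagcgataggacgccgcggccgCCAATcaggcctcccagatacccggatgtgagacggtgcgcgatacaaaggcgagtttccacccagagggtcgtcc
HNRNPR: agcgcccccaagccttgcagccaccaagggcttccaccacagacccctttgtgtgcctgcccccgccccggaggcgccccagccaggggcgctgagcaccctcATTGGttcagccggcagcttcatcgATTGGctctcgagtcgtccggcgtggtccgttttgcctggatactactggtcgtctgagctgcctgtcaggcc
HNRNPA0: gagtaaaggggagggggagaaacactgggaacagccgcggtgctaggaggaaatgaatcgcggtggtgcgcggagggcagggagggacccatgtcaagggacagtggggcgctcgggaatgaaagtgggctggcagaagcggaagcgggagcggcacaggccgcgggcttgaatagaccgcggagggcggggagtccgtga

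The second set contrasts occupied SR and snRNP starts with the member that had no peak at all. SRSF1, SRSF6 and SNRNP70 are given around the replicate 1 summit, at chr17:58007508-58007708 (minus strand), chr20:43457692-43457892 (plus strand) and chr19:49085175-49085375 (plus strand), and none holds CCAAT. For SRSF8 the window is centred 150 bases before its canonical start, at chr11:95066669-95066869 (plus strand). It holds 1 CCAAT, on the opposite strand, and its GC content is 30.8%, compared with 58.2%, 66.2% and 71.6% in the other windows of this set. The summit windows of SRSF2, SRSF7, HNRNPA2B1, SF3A2 and U2AF2, which have higher folds, lie mostly or wholly in UTRs annotated for the gene or its neighbour and are not printed.
SRSF1: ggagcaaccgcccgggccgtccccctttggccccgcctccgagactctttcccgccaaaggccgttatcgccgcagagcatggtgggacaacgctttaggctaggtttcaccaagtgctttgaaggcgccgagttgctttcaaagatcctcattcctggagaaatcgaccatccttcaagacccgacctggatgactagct
SRSF6: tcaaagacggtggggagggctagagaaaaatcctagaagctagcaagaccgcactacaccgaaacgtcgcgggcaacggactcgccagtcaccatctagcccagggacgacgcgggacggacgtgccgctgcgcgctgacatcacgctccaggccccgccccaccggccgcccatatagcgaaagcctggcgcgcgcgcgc
SNRNP70: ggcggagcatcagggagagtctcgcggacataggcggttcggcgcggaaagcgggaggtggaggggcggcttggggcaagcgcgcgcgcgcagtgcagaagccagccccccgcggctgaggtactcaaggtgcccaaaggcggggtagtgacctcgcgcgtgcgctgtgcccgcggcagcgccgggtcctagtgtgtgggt
SRSF8: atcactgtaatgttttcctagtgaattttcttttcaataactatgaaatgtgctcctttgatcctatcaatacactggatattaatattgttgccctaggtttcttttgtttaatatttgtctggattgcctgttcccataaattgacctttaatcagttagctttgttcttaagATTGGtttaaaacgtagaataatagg

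In the 201 bases around the strongest promoter summit, CCAAT was found on either strand in 13 of 19 hnRNP genes in replicate 1, compared with 3 of 12 SR genes, 2 of 18 snRNP genes and 19.1% of all protein-coding genes with such a summit. In replicate 2 it was found in 12 of 20 hnRNP, 1 of 11 SR and 3 of 17 snRNP genes, against 18.0% of genes. It was present in both replicates at 10 hnRNP genes, namely HNRNPA1, HNRNPA2B1, HNRNPA3, HNRNPAB, HNRNPC, HNRNPDL, HNRNPK, HNRNPLL, HNRNPM and HNRNPUL1. At HNRNPM the motif lay at the peak in intron 12, 36357 bp downstream of the canonical start. At HNRNPL the strongest promoter summit also lay far downstream, and the start summit window of replicate 1, outside this count, held 1 CCAAT. Of the SR and snRNP genes, SRSF2 had CCAAT in both replicates. Where a motif of the hnRNP genes lay within 1000 bp of the canonical start, it lay upstream in 11 of 12 genes in replicate 1 and 10 of 10 in replicate 2. The median distance of CCAAT from the summit in the hnRNP genes was 42 and 35.5 bases.

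A like count was found in fixed windows, a search chosen after the summit windows had been seen. In RefSeq promoter sequences (GRCh38.p14, 300 bases around the start, mostly upstream), which covered 46 of 51 members, CCAAT was in 13 of 19 hnRNP, 2 of 11 SR and 4 of 16 snRNP promoters, compared with 36.6% of 15345 promoters. Other motifs departed from the share of all promoters too. CGGAAG was in 11 of 16 snRNP, 5 of 11 SR and 6 of 19 hnRNP promoters against 25.9%, and CACGTG was in 7 of 19 hnRNP, 1 of 16 snRNP and 0 of 11 SR promoters against 8.89%. CTCGCGAG was in 4 of 46 member promoters against 1.58%, GGGCGG in 33 against 59.2%, TGTA in 17 against 51.5% and TATAAA in 5 against 9.63%. A match is a run of letters, and the files do not say whether any factor binds there.

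Other motifs lay below, near or above the background. TGTA, the DNA form of the UGUA that NUDT21 binds in RNA, was in 16 of 49 member windows in replicate 1 (32.7%) against 35.1% of genes. In replicate 2 it was in 13 of 48 (27.1%) against 41.9%. CGGAAG, the core bound by ETS factors, was in 14 of 49 and 10 of 48 member windows against 15.8% and 14.1%. GGGCGG, the GC box bound by SP factors, was in 24 of 49 and 23 of 48 against 47.3% and 34.1%, and CACGTG, the E-box, was in 3 of 49 and 5 of 48 against 5.17% and 5.49%. TATAAA was in 0 of 49 and 1 of 48 against 1.18% and 1.30%, and CTCGCGAG was in 1 of 49 and 3 of 48 against 0.880% and 0.586%.

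**Figure D3:**
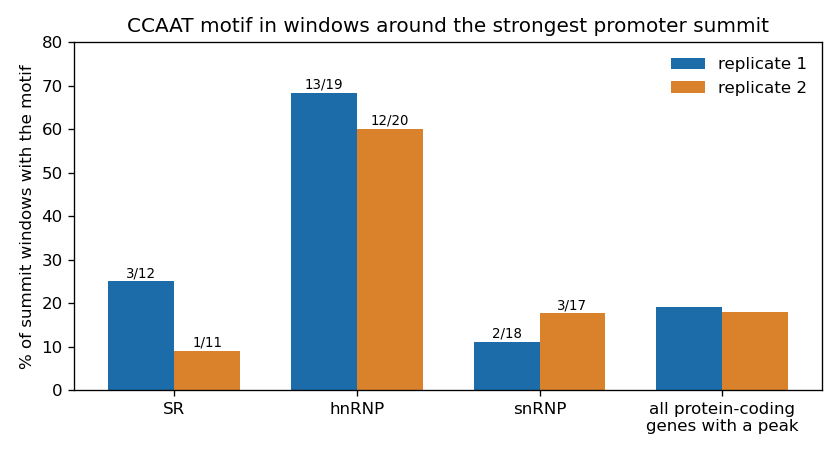
Share of summit windows holding CCAAT on either strand (vertical axis, %) for each group and for all protein-coding genes that have a promoter summit, with blue bars for replicate 1 and orange bars for replicate 2; labels give the genes with the motif over the genes with a peak. The hnRNP genes stand at 13 of 19 and 12 of 20, and SR and snRNP genes lie near or below the 19.1% and 18.0% of all genes, except for SR genes in replicate 1 at 3 of 12.

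Among the SR genes, SRSF2, which recognises exonic enhancers and is recurrently mutated in myeloid neoplasms, had the highest folds. Its peak of 2161 bp at chr17:76736174-76738334 had a fold of 23.05 in replicate 1, and its peak in replicate 2 had 19.3, with the summit at the same base, 130 bp upstream of the start. MFSD11 starts divergently under the same peak, so the signal cannot be assigned to either gene. SRSF7, which also acts in mRNA export and in poly(A) site choice, followed at 12.6 and 13.0, over a promoter shared with GEMIN6. SRSF10, a repressor when dephosphorylated, had 11.2 and 10.4, and TRA2B, which binds purine-rich enhancers, had 11.99 and 9.53. SRSF6 had 9.84 and 9.78. The peaks of SRSF1 and SRSF6 also lay near starts of protein-coding genes without a symbol. All of these lay above the medians of all protein-coding genes with a canonical start peak, 5.31 and 5.13.

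SRSF3, the smallest SR protein and a partner of SRSF7, had folds of 8.99 and 7.55 at its canonical start. SRSF5 had 8.57 and 6.60, SRSF4 had 9.22 and 5.16, and SRSF1, the founding member of the family, had 6.30 and 8.56. SRSF9, the closest paralog of SRSF1, had 6.71 and 6.17 (shared with DYNLL1). Values differed within subfamilies. SRSF4, SRSF5 and SRSF6 form a subfamily, and SRSF6 was the highest of them in both replicates. SRSF3 and SRSF7 are paralogs too, and SRSF7 exceeded SRSF3 in both.

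The remaining SR genes were weak or unoccupied. SRSF8, an intronless copy related to SRSF2, had no peak in either replicate, and its GC content of 49.8% was the lowest of all members. Only 20.2% of genes of like GC content had a start peak in both replicates. TRA2A, the paralog of TRA2B, had a start peak with a fold of 3.45 in replicate 1 and none in replicate 2. SRSF11 had folds of 2.55 and 2.76, with summits in its 5′ UTR. Its fragment counts, 57 and 34, were above the medians of 53 and 30 for genes with a start peak, over local backgrounds of 20 and 11.7 fragments compared with medians of 8 and 4.87. A fold depends on that background, so a low fold here did not mean few fragments.

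**Figure D4:**
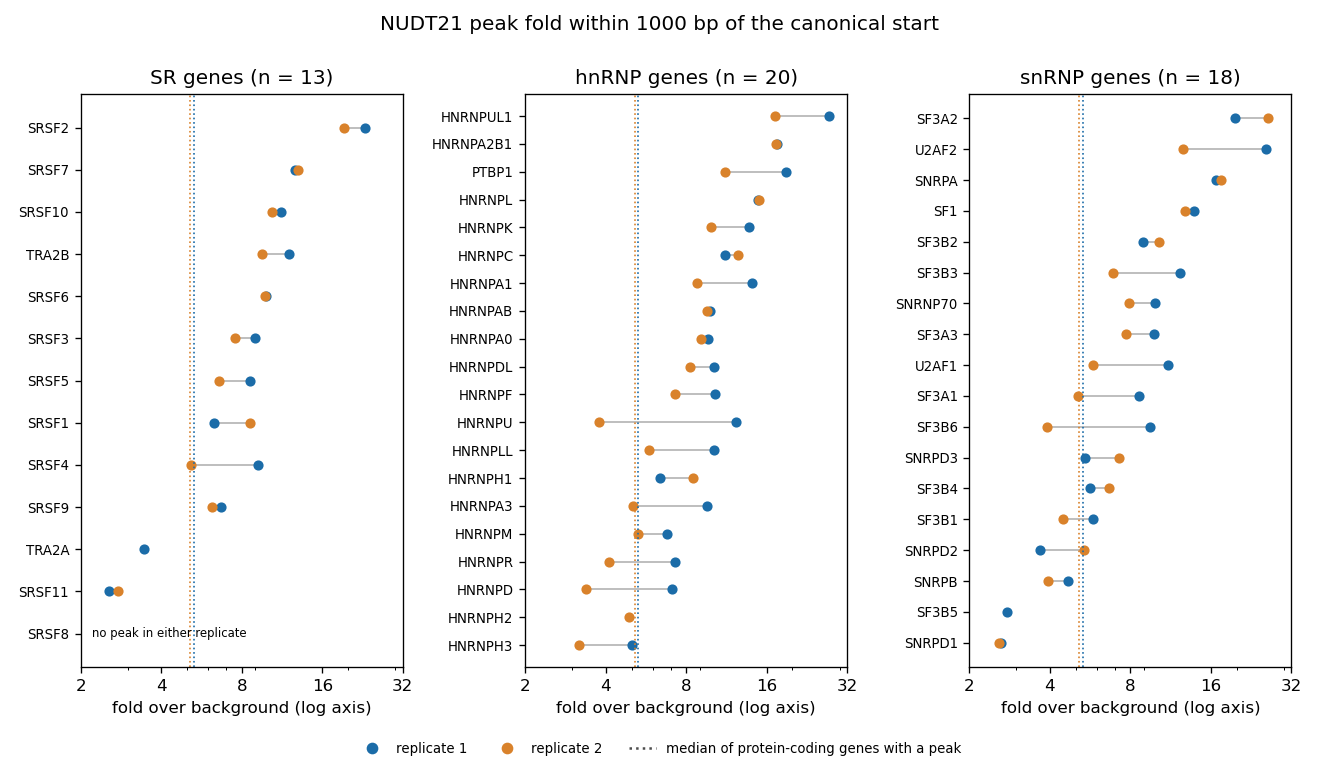
Fold of the strongest peak within 1000 bp of the canonical start (horizontal log axis) for each of the 51 splicing factor genes, blue for replicate 1 and orange for replicate 2, joined by a line where both exist; dotted lines mark the medians of protein-coding genes with such a peak, 5.31 and 5.13. SRSF2 is the highest SR gene in both replicates, while HNRNPUL1 and U2AF2 are highest in their groups in replicate 1 and HNRNPA2B1 and SF3A2 in replicate 2, and SRSF8, TRA2A, HNRNPH2 and SF3B5 lack a point in at least 1 replicate.

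Among the hnRNP genes, HNRNPUL1, a relative of the nuclear scaffold factor HNRNPU, had folds of 27.3 and 17.3, the highest of the group in replicate 1, and no other protein-coding gene starting nearby. Its peak in replicate 1 was at chr19:41262225-41265465, with summits 212 and 208 bp upstream of the start in the 2 replicates. HNRNPA2B1, an exon repressor, had 17.45 and 17.35, the highest in replicate 2, with the same summit base 152 bp upstream, over a promoter shared with CBX3. PTBP1, the polypyrimidine tract binding repressor, had 18.9 and 11.2. HNRNPL, which binds CA repeats, had 14.9 in both. HNRNPK, a C-rich RNA binding protein, had 13.8 and 9.92 (shared with RMI1), HNRNPA1, an antagonist of SRSF1, had 14.1 and 8.82 (shared with CBX5), and HNRNPC, which binds U tracts, had 11.2 and 12.5.

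A middle tier had folds between 5 and 11 in replicate 1. HNRNPA0 had 9.68 and 9.09, HNRNPAB had 9.80 and 9.59, HNRNPDL had 10.1 and 8.25 (shared with ENOPH1) and HNRNPF had 10.2 and 7.27. HNRNPA3 had 9.60 and 5.05, HNRNPLL, a regulator of CD45 splicing in lymphocytes, had 10.2 and 5.80, and HNRNPR had 7.28 and 4.11. HNRNPH1 had 6.38 and 8.52, HNRNPM had 6.76 and 5.30, and HNRNPH3 had 5.01 and 3.19 (shared with PBLD).

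At a few hnRNP genes the replicates differed more. At HNRNPU both replicates had a peak just upstream of the start, with its summit 54 bp upstream and a fold of 5.53 in replicate 1 and 113 bp upstream and 3.77 in replicate 2. Replicate 1 had a second, stronger peak in intron 1, 1366 bp downstream, with a fold of 12.3. HNRNPD, which binds AU-rich elements, had 7.07 and 3.39. HNRNPH2 had no peak in replicate 1 and a fold of 4.89 in replicate 2, where its start on chromosome X is shared with GLA. Within its subfamily, which binds G tracts, HNRNPF and HNRNPH1 were above HNRNPH3 in both replicates, and HNRNPH2 was the only hnRNP gene without start peaks in both.

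Of the snRNP genes, SF3A2, a subunit of the U2 snRNP, had the highest fold of all members in replicate 2. Its folds were 19.7 and 26.1, with the same summit base 371 bp upstream of the start in both replicates, over a promoter shared with PLEKHJ1. The peak of replicate 1 was 22188 bp long and reached the start of DOT1L, while that of replicate 2 was 3216 bp. U2AF2, the large subunit of the U2 auxiliary factor that binds the polypyrimidine tract, had 25.8 and 12.6 over peaks of 5737 and 5298 bp shared with CCDC106. U2AF1, its small subunit, had 11.1 and 5.81. SNRPA, the A protein of the U1 snRNP, which inhibits polyadenylation of its own mRNA, had 16.7 and 17.5 (shared with ACTMAP), and SNRNP70, the U1-70K protein, had 9.86 and 7.94.

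Reads at U2AF1 are uncertain because hg38 holds an erroneous second copy of the locus, 99.8% identical over 14615 bp. A peak lay within 1000 bp of the copy's 5′ end in each replicate, with folds of 5.999 and 4.29, and the files do not say how reads were split between the copies.

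SF1, the branch point binding protein, had 13.8 in replicate 1, with the summit 151 bp upstream of the start. Replicate 2 had a matching peak 279 bp upstream with a fold of 12.1 and a slightly higher one 890 bp downstream, with 12.8. The SF3A and SF3B genes spanned a wide range. SF3A3 had 9.81 and 7.73, SF3A1 had 8.64 and 5.10 (shared with CCDC157), and SF3B2 had 8.95 and 10.2 (shared with GAL3ST3). SF3B3 had 12.2 and 6.91 (shared with COG4), SF3B4 had 5.67 and 6.68 (shared with MTMR11), and SF3B6 had 9.44 and 3.92 (shared with FAM228B). SF3B1, which contacts the branch point and is mutated in myelodysplasia and lymphoid leukemia, had 5.79 and 4.49, and SF3B5 had 2.77 in replicate 1 and no peak in replicate 2.

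The Sm genes, whose products form the ring around snRNAs, included the lowest folds of the snRNP genes. SNRPD1 had folds of 2.62 and 2.59, at percentiles of 9.02 and 2.75, SNRPB had 4.69 and 3.93, SNRPD2 had 3.69 and 5.35 (shared with QPCTL), and SNRPD3 had 5.42 and 7.28 (shared with GUCD1). At SNRPD1, 53 and 29 fragments were recovered over local backgrounds of 18.0 and 10.6. At SF3B5, 56 fragments were recovered over a background of 18.0. As at SRSF11, these counts were near the medians of all genes with a start peak while the backgrounds were higher. What raised the local background at these starts was not tested.

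Summits at the members lay upstream of the canonical start more often than at other genes. Positions were taken from that start alone, and members had more annotated starts, a median of 9 against 5. Some upstream summits lay inside the gene, past another of its annotated starts, as at HNRNPUL1 and HNRNPL. At 10 of 18 snRNP genes the start peak also lay near a start of another protein-coding gene. The part of these other starts in the positions was not tested. In replicate 1, 36 of 49 canonical start peaks had their summit upstream of the start, compared with 53.2% of protein-coding genes, and in replicate 2, 36 of 48 compared with 52.8%. The median position was 155 bp upstream in replicate 1 and 154.5 bp upstream in replicate 2, against 34 and 44 bp upstream. The summit lay within 400 bp of the start in 43 of 49 and 44 of 48 members, against 71.0% and 64.3% of genes. The snRNP genes had the farthest median, 222.5 and 178 bp upstream, hnRNP genes had 152 and 157, and SR genes had 98 and 110. Of the other summits, 6 and 5 lay in a 5′ UTR and 7 in intron 1 in each replicate.

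**Figure D5:**
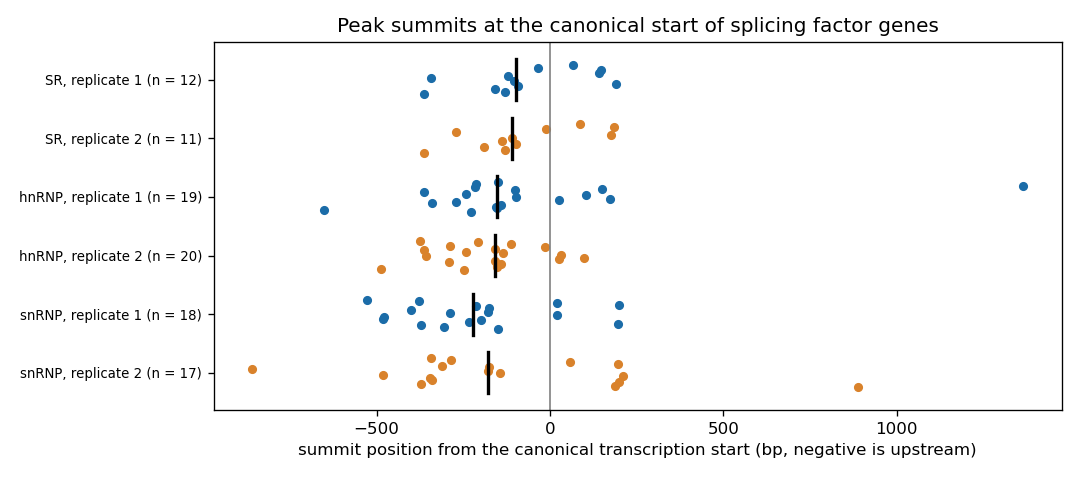
Position of the summit of the strongest peak within 1000 bp of the canonical start (horizontal axis, bp, negative is upstream) for each splicing factor gene, by group and replicate; each point is a gene and the black bar is the median. Most points lie upstream of 0, with group medians between 98 and 222.5 bp upstream, and HNRNPU in replicate 1 is the farthest point downstream.

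Member start peaks were longer and had more fragments at the summit than those of other genes. Median lengths were 1595 and 1235.5 bp, against 1166 and 956 bp, and median fragment counts at the summit were 90 and 43, against 53 and 30. Median folds were 9.80 and 7.64. The local background was also higher at members, with medians of 10 and 5.58 fragments against 8 and 4.87. hnRNP genes had the most fragments, medians of 137 and 58, and snRNP genes with 82 and 35 and SR genes with 78 and 36 changed order between the replicates.

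The replicates ranked the members' start peaks as they ranked those of other genes. Over the 47 members with a peak in both, Spearman's rho of the folds was 0.759, and over 9634 protein-coding genes it was 0.769. These points are genes within the same pair of libraries and share their depth and base composition. The median gap between the summits of both replicates was 55 bp at members and 111 bp at all genes, and 22 of 47 members (46.8%) had summits within 50 bp against 34.0% of genes. The summit was the same base at 7 members, namely SRSF2, HNRNPA2B1, HNRNPDL, HNRNPK, SF3A2, U2AF1 and SNRNP70. These are the summits of the strongest start peak, which differed by more than 400 bp at 6 members, namely SRSF7, HNRNPU, SF1, SF3A1, SF3B3 and U2AF2. The fold was higher in replicate 1 at 35 of 47 members and at 6771 of 9634 genes.

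Strong sites were found at shared promoters and at promoters of single genes. Of the 47 members with a start peak in both replicates, 20 (42.6%) had their peak within 3000 bp of a start of another protein-coding gene, compared with 38.4% of such genes in the annotation. Over all members the counts, from peaks of either replicate, were 5 of 13 SR, 6 of 20 hnRNP and 10 of 18 snRNP genes. The top 10% by canonical start fold included 10 of these 21 members and 11 of the other 30. The median canonical start percentile was 97.5 and 96.4 at shared promoters and 97.2 and 92.7 at the others. When peaks shared with another gene were left out, 33 of 51 members still had a promoter peak in both replicates, compared with 42.5% of protein-coding genes.

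Several members had a further promoter peak far downstream of the canonical start, near another annotated start. At HNRNPM, a peak in intron 12 had its summit at the same base in both replicates, 36399 bp downstream of the canonical start, with folds of 11.99 and 10.2, above those of 6.76 and 5.30 at the start itself. At HNRNPL the strongest promoter peak lay 9653 and 9421 bp downstream with folds of 15.99 and 18.9. It also lay near a start of a protein-coding gene without a symbol, and was 8237 bp long in replicate 1. At HNRNPH1 the strongest promoter peak lay 9930 and 9950 bp downstream, 437 and 457 bp beyond the annotated gene end, with folds of 13.4 and 11.98. At SF3B2 the strongest promoter peak lay 15875 and 16047 bp downstream, near the start of the neighbour PACS1, with folds of 11.4 and 10.7. SRSF10 and SRSF4 had a peak in intron 3 in both replicates, with folds of 8.40 and 6.95 at SRSF10 and 5.26 and 4.19 at SRSF4.

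Gene bodies were occupied near the background rate. A peak over the gene and more than 3000 bp from all of its starts was present in both replicates at 12 of 51 members, compared with 28.6% of protein-coding genes and 30.5% of genes of like GC content. The count was 13 in replicate 2 alone, against 31.3% of genes, and 21 in replicate 1 alone, against 38.3%. With only 1000 bp around every start left out, it was 18 of 51 (35.3%) against 35.6% of genes. Members were shorter, with a median length of 16581 bp against 27471 bp. They also had more annotated starts, so more of each gene was left out. The part of length and of starts in these counts was not tested. The counts were 2 of 13 SR, 6 of 20 hnRNP and 4 of 18 snRNP genes. Body peaks were weaker than start peaks, with median folds of 5.23 and 4.83.

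The 12 genes were SRSF6, SRSF9, HNRNPA2B1, HNRNPAB, HNRNPC, HNRNPF, HNRNPM, HNRNPUL1, SF3A3, SF3B2, U2AF2 and SNRNP70. HNRNPC had the most, 8 in each replicate, all within introns 2 and 5, and the strongest had folds of 8.31 and 7.48. Its peak 23423 bp from the start had the same summit base in both replicates, with folds of 8.01 and 7.34. SNRNP70 had 4 and 7, HNRNPA2B1 had 6 and 6, and some of the latter lay near NFE2L3. At SRSF6, a peak with folds of 10.6 and 8.89 lay about 484 bp before the annotated gene end.

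Body peaks at gene ends were found at about the background rate. A body peak with its summit within 1000 bp of the gene end was present in both replicates at 3 of 51 members, SRSF6, SF3B2 and U2AF2, compared with 4.44% of protein-coding genes. At SF3B2 and U2AF2 the peak lay also within 3000 bp of a start of the neighbouring PACS1 or EPN1. This count leaves out peaks within 3000 bp of any start of the gene itself, and members had more annotated starts. Peaks left out in this way lay within 1000 bp of the gene end in both replicates at, for example, SRSF5, HNRNPA1, HNRNPH1 and HNRNPL. Their share over all genes was not counted. Of 29 members with exon bases found in NMD transcripts and in no protein-coding transcript, 13 had a peak touching such bases in each replicate. The share over other genes was not counted. The touching peaks included start peaks, as at SRSF1, SRSF3, SRSF7, HNRNPA2B1 and HNRNPA3. The summit lay on such a base at 1 of 203 member peaks in replicate 1, at HNRNPU, and at 0 of 168 in replicate 2.

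Other splicing genes had lower values than the 51. Of 66 further spliceosome and splicing regulator genes, 54 had promoter peaks in both lists, compared with 57.0% of all protein-coding genes. Another 8 had one in only 1 replicate and 4 in neither, and the median percentiles of the 66 were 90.7 and 83.7. Some lists came near the snRNP members, whose medians were 97.2 and 92.8. Of the U4/U6 and U5 genes, 9 of 10 had peaks in both replicates (medians 95.7 and 91.6). Among other splicing regulators it was 19 of 21 (95.2 and 92.4). The further Sm and U2 genes were lower, at 5 of 7 (61.6 and 74.9). Of these 66 genes, 5 were in the top 10% by promoter fold in both replicates, compared with 19 of the 51. The share of all protein-coding genes was 7.0%. PRPF8, the central protein of the U5 snRNP, had canonical start folds of 12.4 and 10.3. SNRPF and SNRPB2 had peaks in only 1 replicate, and LSM2, LSM6 and LSM8, of the ring on U6 snRNA, had none in either. All 7 kinases and importers that act on SR proteins had a promoter peak in both replicates.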

How the data were processed

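CUT&Tag with an NUDT21 antibody was performed in 2 replicates of J.gamma1 cells, which formed 1 group. According to the methods and processing notes of the study, the authors trimmed reads with fastp, aligned them to hg38 with Bowtie2 2.2.5, removed duplicates with Picard and called peaks in each replicate with MACS3 3.0.1. A control library and the calling options are not given in the sources used here. The deposited lists gave for each peak a fold enrichment (a ratio), a −log10 p-value and a −log10 q-value. The deposited score is a scaled q-value and was not used. Read totals were not used here, so the absolute depth is unknown.

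Fragments and local background at each summit were solved from the deposited fold and −log10 p, and a solution was found for 99.9827% and 99.997% of peaks. The solver and the gene calls were tested on simulated data. Genes, transcripts and canonical starts came from GENCODE release 44 on chromosomes 1 to 22, X and Y. Folds were compared only as ranks within a list or as values side by side. No test was made, because there was 1 group of 2 replicates, and all comparisons are descriptions. Values over genes are not independent, and with 2 replicates an SD is imprecise. Peaks of neighbouring genes overlap, so a peak could count for several genes.

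Every member was accounted for, and fuller values were given for members lacking a start peak in a replicate, the highest and lowest members of each group by rank, paralog families and members with body peaks. Members, gene lists and motifs were chosen with earlier results of these data known. Scripts used Python 3.11.15, pandas 2.3.3, pysam 0.24.0, samtools 1.23.1 and matplotlib 3.10.9. Alternatives covered the distance to a start, which starts counted, stricter peaks, overlap between replicates, peaks shared with other genes, the matching of GC content and leaving out each replicate.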

Additional observations from a re-analysis of the deposited data

How the results depend on the processing

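Of 83 values under another setting, 73 stayed within 1.5 times the count or within the replicate SD of the median. With each list limited to its 10000 best peaks by −log10 p, 9 snRNP genes kept a promoter peak in both replicates, and those lists held promoter peaks for 32 of 51 members against 24.6% of genes. Without peaks shared with another gene 6 of 13 SR genes kept one, a share near the 42.5% of genes. Without shared peaks the median percentile of the strongest promoter peak was 94.5 for all members, 93.9 for SR genes and 88.1 for snRNP genes. With a −log10 q of at least 5 it was 94.96 for all members, 94.9 for SR genes and 96.5 for hnRNP genes. Ranked by −log10 p it was 98.6 for hnRNP genes. Leaving out 1 replicate gave between 13 and 21 members with a body peak, against 12 in both. No paired analysis was possible because there was only 1 group. The median number of fragments at a summit differed between the lists, and the part of depth in peaks found in only 1 of them was not tested.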
